A study of Mus musculus with 3 samples.

Results

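Translation initiation factors are the proteins that bring the initiator tRNA, the small ribosomal subunit and the mRNA together so that protein synthesis can start. The genes described here are 38 named members of this group, all found by symbol among 21887 protein-coding genes on the nuclear chromosomes of the RefSeq table of GRCm38.p6, which is the mm10 build. A peak was assigned to a member if it overlapped the gene span or the 5 kb on either side. They fell into 8 eIF2 and eIF2B genes, 13 eIF3 genes, 10 eIF4 genes and 7 genes of the eIF1, eIF5 and eIF6 groups.

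The peaks came from chromatin immunoprecipitation followed by sequencing in wild-type C57BL/6 mouse embryonic fibroblasts, primary cells isolated at E13.5 and passaged. After 24 hours in plating medium, all cells spent 3 hours in medium deprived of amino acids (AAD), so no fed control was in the series. There was 1 library for the transcription factor ATF4 (Santa Cruz C-20 antibody), 1 for its relative CEBPG (an antiserum to the C-terminus made in the submitters' laboratory) and 1 for GFP, which was not analysed here. With 1 library per antibody, no value has an error between cultures and no test between groups was possible. Peak lists hold no expression values, so the cell type could not be checked against fibroblast markers, and no statement about mRNA levels can be made.

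The eIF2 complex carries the initiator tRNA, and eIF2B is the exchange factor that recharges eIF2 with GTP. When amino acids run short the kinase GCN2 phosphorylates eIF2, which inhibits eIF2B, lowers general initiation and raises translation of the Atf4 mRNA. ATF4 and CEBPG are basic leucine zipper proteins that can pair and bind C/EBP-ATF composite elements in the genes of this response. The large eIF3 complex scaffolds the small subunit, and the eIF4 proteins bind the mRNA cap and unwind the leader.

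The score of a peak is the authors' own value from the end of its deposited name. It ran from 40 to 3205.83 over 25419 CEBPG peaks, with a median of 47.2, and from 40.02 to 1152.06 over 2642 ATF4 peaks, with a median of 45.9. Scores were read only within each list. The files give no library depth, so the lists cannot be compared with each other in level.

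CEBPG peaks lay at 19 of the 38 initiation factor genes, and ATF4 peaks at 5. The 2 strongest sites were at Eif3c, a core eIF3 subunit, and Eif1, which guards start codon selection. These were also the 2 members where an ATF4 peak overlapped a CEBPG peak. Another 15 members had a CEBPG peak without an ATF4 peak, Eif4e2 had an ATF4 peak without a CEBPG peak, and 18 had neither. Peaks of both lists, overlapping or not, were at 4 members (10.5%), beside 3.43% of all protein-coding genes. Of the 21887 genes searched, 6541 carried CEBPG peaks, 1082 carried ATF4 peaks and 750 carried both. Background shares for peaks of a single list, or of neither, follow from these counts but were not worked out separately. Those members' counts are therefore given without a printed share.

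The share of members with a CEBPG peak was 50% (95% Wilson interval 34.8 to 65.2%), beside 29.9% of all protein-coding genes. For ATF4 it was 13.2% (5.75 to 27.3%), beside 4.94% of all genes. Overlapping peaks of both factors were at 5.26% of members (1.46 to 17.3%), beside 1.13% of all genes. These intervals cover counting error over the named genes only. The members' counts were above the background in all 3 cases, and no test of that difference was made.

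The members' CEBPG scores spread widely. A CEBPG peak of 100 or more was at 7 of 38 members (18.4%), beside 7.24% of all genes. The 7 were Eif3c, Eif1, Eif4e, Eif2s2, Eif4g2, Eif4h and Eif3a. In another 8 members the top CEBPG score was from 50 to under 100, and in 4 it was under 50. A CEBPG peak of 50 or more was at 15 of 38 members (39.5%), beside 17% of all genes. Among genes with any CEBPG peak, one of 50 or more was at 15 of 19 members and at 3711 of all 6541. No member had an ATF4 peak of 100 or more, against 0.42% of all genes. At ATF4 scores of 50 or more, Eif1 and Eif3c remained, beside 1.91% of all genes.

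**Figure D1:**
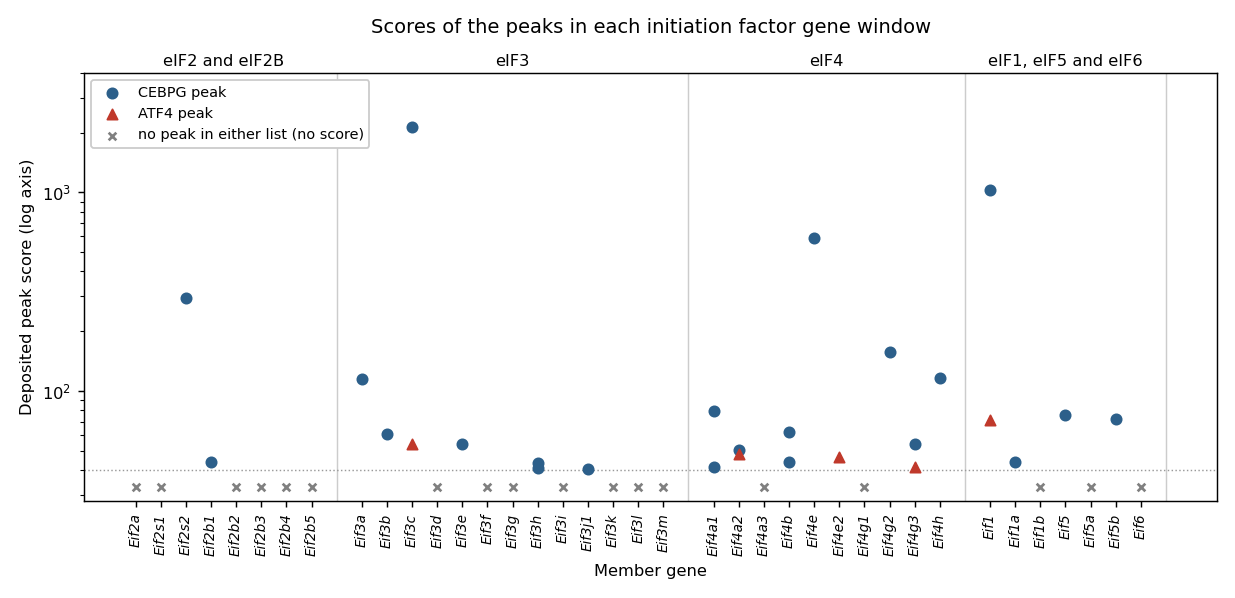
Deposited score (log axis) of every CEBPG peak (circles) and ATF4 peak (triangles) in the window of each of the 38 genes, by family. Crosses below the dotted line at 40, the lowest CEBPG score of the list, mark the 18 genes with no peak and are not values. Eif3c (2141.86) and Eif1 (1027.63) stand above all other members for CEBPG.

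The sequence given here is the 250 bases before the start of Eif2s2, which encodes the beta subunit of eIF2. It is shown because this was the single member promoter that a CEBPG peak overlapped. The sequence is from RefSeq (GRCm38.p6, chr2:154892907-154893156, minus strand), 5′ to 3′, and the 167 capitals mark the bases under the peak.
Eif2s2: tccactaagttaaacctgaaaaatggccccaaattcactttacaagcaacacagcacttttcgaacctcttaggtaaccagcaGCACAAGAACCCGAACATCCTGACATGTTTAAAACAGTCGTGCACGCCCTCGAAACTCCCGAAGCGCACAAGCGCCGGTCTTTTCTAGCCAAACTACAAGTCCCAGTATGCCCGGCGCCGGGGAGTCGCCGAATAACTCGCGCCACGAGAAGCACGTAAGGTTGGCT

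Promoter windows of 250 bases before to 50 after a start were matched for 31 members. Eif1a, Eif2b3, Eif3e, Eif3h, Eif3i, Eif4g2 and Eif6 had none. Both strands were searched for TGATGNAA (the C/EBP-ATF composite element), TGACGTCA (the cAMP response element), TTGCGCAA (the C/EBP palindrome) and TTGCNNAA (a looser C/EBP form that includes the palindrome). None of the 4 was in the Eif2s2 window. TGATGNAA and TGACGTCA were in 0 of the 31 genes' windows, where 3.6% and 2.23% of 21263 windows of protein-coding genes held them. With 31 genes, a count of 0 cannot be told apart from those shares. For all 4 motifs members were counted by gene and the background by window, so the shares differ in unit. The windows did not reach the peaks at Eif1, Eif3c or Eif4e, so the search does not describe those sites. TTGCNNAA was in the windows of 3 members (Eif2b2, Eif4e and Eif4g1), beside 10.2% of all windows.

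The palindrome TTGCGCAA was in 0.221% of all windows and in 1 member's, that of Eif4g1. This gene encodes the scaffold eIF4G1, and it had no peak in either list. The stretch is printed because it pairs a rare motif with a gene that lacked a peak. It spans 60 bases (RefSeq, GRCm38.p6, chr16:20672537-20672596, plus strand), with the palindrome in capitals, and the palindrome begins at position -157 relative to the start.
Eif4g1: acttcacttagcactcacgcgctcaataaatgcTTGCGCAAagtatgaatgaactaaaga

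Of the eIF2 and eIF2B genes, grouped by name, 2 of 8 had a CEBPG peak (25%, Wilson interval 7.15 to 59.1%), near the 29.9% of all genes. Both peaks were centred within 1 kb of a start, at 2 of the 7 genes with a listed start (28.6%), beside 3.98% of all such genes. Within 20 kb of the gene, 4 of 8 had a CEBPG peak, beside 43.7% of all genes. No ATF4 peak was at any of the 8 in the 5 kb window, beside 4.94% of all genes. Eif2s2 had a CEBPG peak of 295.22 that ranked 1173 of 25419 and ran from 167 bp before its start to 366 bp after it. Eif2b1, the alpha subunit of eIF2B, had one of 43.84, centred 708 bp before its start and just inside the span of the neighbouring gene Gtf2h3. The gene for the phosphorylated alpha subunit of eIF2, Eif2s1, had no peak. Neither did Eif2b2, Eif2b3, Eif2b4 and Eif2b5, the other eIF2B subunits, nor Eif2a, which despite its name encodes a separate initiation factor. The eIF2 gamma subunit genes Eif2s3x and Eif2s3y, which are not among the 38 members, had no peak either.

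Of the eIF3 subunit genes, 6 of 13 had a CEBPG peak (46.2%, 23.2 to 70.9%), beside 29.9% of all genes. An ATF4 peak was at 1 of 13 (7.69%), near the 4.94% of all genes. Their 7 CEBPG scores ranged from 40.41 to 2141.86, with a median of 54.25. Eif3c held the highest score of all members. Its CEBPG peak covered chr7:126565501-126566196 and ranked 93 of 25419, and its ATF4 peak of 54.08 covered chr7:126565799-126566049 and ranked 580 of 2642. The whole ATF4 peak of 251 bp lay within the 696 bp CEBPG peak, and the centres were 76 bp apart. Both peaks lay inside the gene, with the CEBPG peak from 170 to 865 bp after the start.

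The other eIF3 sites were weaker. Eif3a, the largest scaffold subunit, had a CEBPG peak of 115.15 that lay 4661 bp outside the gene, the member closest to the limit of the window. The remaining 4 had lower scores. These were 60.78 at Eif3b, 54.25 at Eif3e, 43.4 and 41.18 at Eif3h, and 40.41 at Eif3j1. The Eif3b, Eif3e and Eif3j1 peaks and both Eif3h peaks were centred inside the gene, and those of Eif3b and Eif3j1 lay 15122 bp and 23987 bp after a listed start. Eif3d, Eif3f, Eif3g, Eif3i, Eif3k, Eif3l and Eif3m had no peak, so 7 of the 13 subunit genes carried none.

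In the 5 kb window, the eIF4 genes had the highest share of the 4 groups. A CEBPG peak was at 7 of 10 (70%, 39.7 to 89.2%, beside 29.9% of all genes), and all 7 had one of 50 or more, beside 17% of all genes. The difference in count between the eIF4 and the eIF2 and eIF2B genes was not tested, and their intervals overlapped. Every CEBPG peak of Eif4a1, Eif4a2 and Eif4h also lay in the window of another protein-coding gene. Within 1 kb of a listed start the order differed. There a CEBPG peak was centred at 1 of 9 eIF4 genes (11.1%), beside 3.98% of all such genes. The share was 1 of 10 (10%) for eIF3, 1 of 5 (20%) for the eIF1, eIF5 and eIF6 groups, and 2 of 7 (28.6%) for eIF2 and eIF2B. These shares rest on 1 or 2 genes each, and their order was not tested. ATF4 peaks were at 3 of 10 (30%, beside 4.94% of all genes), and at 0 of 10 with scores of 50 or more, beside 1.91%. None of the 3 lay on a CEBPG peak, where 1.13% of all genes had overlapping peaks.

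Eif4e, the cap-binding protein, had the strongest of these sites. Its CEBPG peak of 591.67 (chr3:138542156-138542665) ranked 541 of 25419 and lay inside the gene, 15142 bp after the nearest listed start. Eif4e2, the related cap-binding protein 4EHP, had no CEBPG peak and an ATF4 peak of 46.64 located 3587 bp outside the gene. That ATF4 peak lay within the span of the neighbouring gene Chrng.

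The scaffold genes differed among themselves. Eif4g2, which encodes the eIF4G-like protein DAP5, had a CEBPG peak of 157.51 inside the gene, and Eif4g1 had none. Eif4g3, whose span of 215 kb was the longest of all members, had a CEBPG peak of 54.39 and an ATF4 peak of 41.32 that were 89.9 kb apart.

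Among the helicase genes and their cofactors, only Eif4h had a CEBPG peak of 100 or more. Eif4a1, the main RNA helicase of the cap complex, had adjacent CEBPG peaks of 79.02 and 41.3, centred 934 bp and 1157 bp after the start. Its paralog Eif4a2 had a CEBPG peak of 50.43 at the far end of the gene and an ATF4 peak of 47.92 centred 1329 bp after the start, with 5.25 kb between them. Eif4a3, a core protein of the exon junction complex, had no peak. Eif4b, a cofactor of the helicase, had CEBPG peaks of 62.29 and 43.87. Eif4h, its relative, had one of 116.94 that lay inside the gene, centred 203 bp from its 3′ end and close to the neighbouring gene Lat2.

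Among the remaining genes, 4 of 7 had a CEBPG peak (57.1%, 25 to 84.2%), beside 29.9% of all genes, and 1 had an ATF4 peak (14.3%), beside 4.94%. Eif1 had a CEBPG peak of 1027.63 (chr11:100320240-100320770, rank 288 of 25419) and an ATF4 peak of 71.34 (chr11:100320429-100320663, rank 241 of 2642). The ATF4 score at Eif1 was the highest of the members. The ATF4 peak of 235 bp lay wholly within the CEBPG peak of 531 bp, the centres were 41 bp apart, and no other protein-coding gene lay within 5 kb of them. The CEBPG peak ran from 291 to 821 bp after the start. Its paralog Eif1b had no peak. Eif5, the GTPase-activating protein for eIF2, had a CEBPG peak of 75.28 located 2003 bp outside the gene on the side of its start. Eif5b, the GTPase of subunit joining, had one of 72.17 inside its span, and Eif1a had one of 44.1. Eif5a and Eif6 had none.

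**Figure D2:**
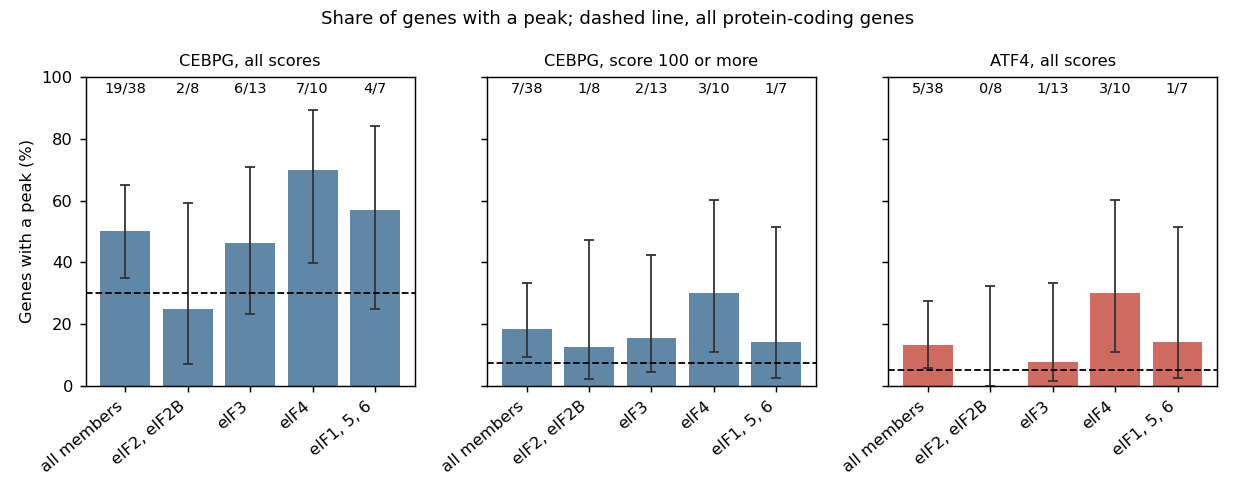
Percent of genes with a CEBPG peak, with a CEBPG peak of 100 or more, and with an ATF4 peak, for all 38 members and the 4 groups. Bars are shares with 95% Wilson intervals, numbers above them are genes with a peak of all genes in the group, and dashed lines give the shares of all protein-coding genes (29.9%, 7.24% and 4.94%).

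Longer genes have wider windows. The median span was 16.2 kb for the members and 17.2 kb for all protein-coding genes. Within the group, the 19 genes with a CEBPG peak had a median span of 21.5 kb and the 19 without had one of 10.5 kb. In genes under 10 kb, 5 of 13 members (38.5%) had a CEBPG peak, beside 11.9% of all such genes. From 10 to 30 kb it was 9 of 18 (50%), beside 21.7%. At 30 kb or more it was 5 of 7 (71.4%), beside 55.9%. The members' share was above the background in each of the 3 classes. For ATF4 the counts were 2 of 13, 2 of 18 and 1 of 7, beside 1.74%, 2.77% and 10.2%.

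**Figure D3:**
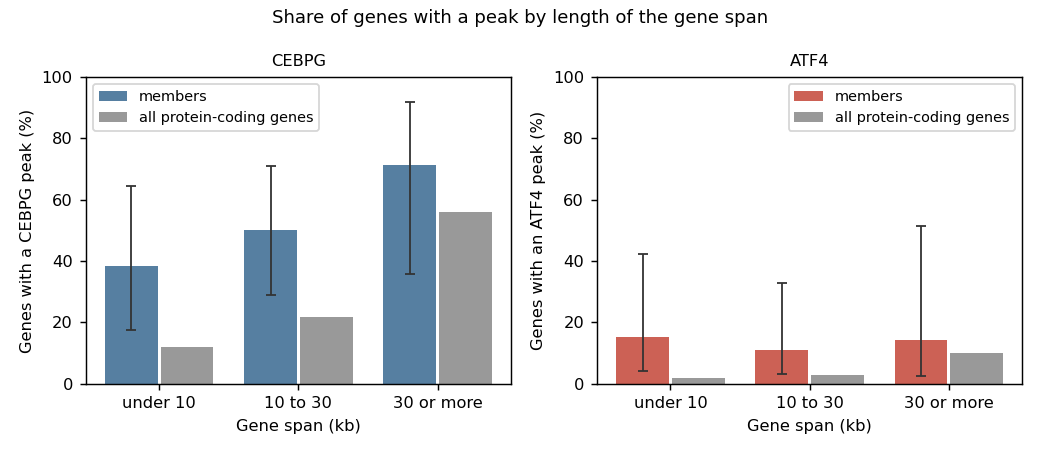
Percent of genes with a CEBPG peak (left) and an ATF4 peak (right) by length of the gene span, for members (coloured bars, 95% Wilson intervals) and all protein-coding genes (grey bars). For CEBPG the members' shares are 38.5%, 50% and 71.4%, and those of all genes 11.9%, 21.7% and 55.9%.

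Some peaks, both strong and weak, were close to gene starts. Of the 31 members with a listed start, 5 (16.1%, 7.09 to 32.6%) had a CEBPG peak centred within 1 kb of it, beside 3.98% of 17492 genes. They were Eif1, Eif3c, Eif2s2, Eif4a1 and Eif2b1. The first 3 had scores of 100 or more, and the peaks at Eif4a1 and Eif2b1 scored 79.02 and 43.84. An ATF4 peak was centred within 1 kb of a start at Eif1 and Eif3c (6.45%), beside 0.526% of genes. At Eif1 and Eif3c both peaks began after the start, inside the gene, whereas the Eif2s2 peak covered the start itself. Exons and introns were not used here.

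**Figure D4:**
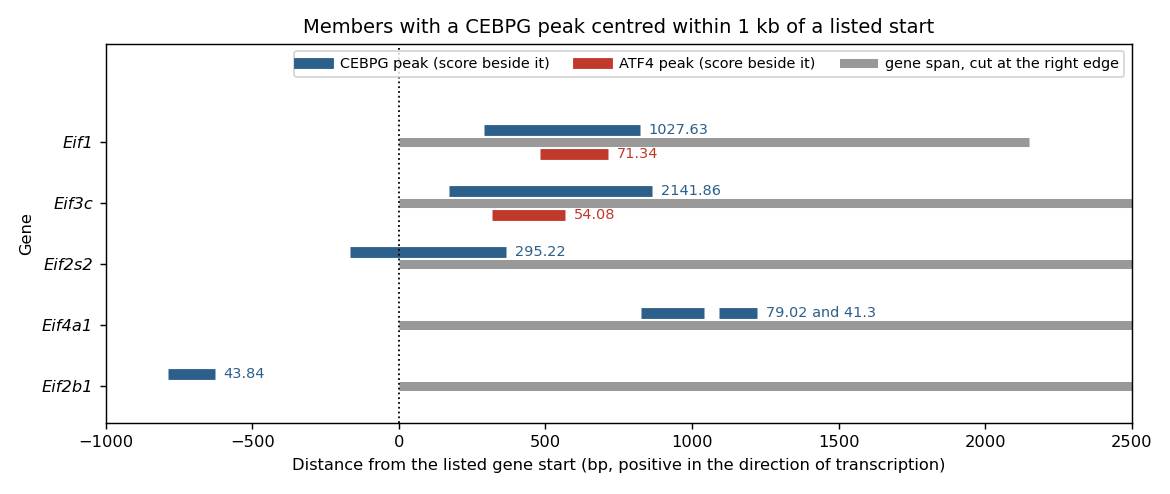
Peaks of the 5 members with a CEBPG peak centred within 1 kb of a listed start, by distance in bp from that start, positive in the direction of transcription. Blue bars are CEBPG peaks, red bars ATF4 peaks, numbers their scores and grey bars the gene span. At Eif1 and Eif3c the ATF4 peak lies within the CEBPG peak, after the start.

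Of the 22 CEBPG peaks in the members' windows, 17 were centred inside the gene and 5 outside it. Another protein-coding gene's window held 8 of them. For Eif1a, Eif2b1, Eif3j1, Eif4a1, Eif4a2 and Eif4h this was true of every CEBPG peak, and for Eif4e2 of its ATF4 peak. Without such peaks, 13 members had a CEBPG peak, beside 24.5% of all genes, and 4 had an ATF4 peak, beside 4.07%. A peak near a gene does not show which gene it acts on.

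Genes that regulate initiation were counted the same way. Of 30 such genes, 10 had a CEBPG peak (33.3%, beside 29.9% of all genes) and 2 an ATF4 peak (6.67%, beside 4.94%), both close to the background for peaks of any score. The 2 with ATF4 peaks held higher CEBPG scores than most members. Eif4ebp1, the repressor that binds eIF4E and a known ATF4 target, had overlapping peaks inside the gene, with a CEBPG score of 2846.75 (rank 49) and an ATF4 score of 183.26 (rank 51). Ppp1r15b, a regulatory subunit of the eIF2 phosphatase, had overlapping peaks at an end of its span, with scores of 1663.64 and 47.73. At both genes the ATF4 peak lay wholly within the CEBPG peak, as at Eif1 and Eif3c.

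CEBPG peaks of 100 or more were at 5 of the 30 (16.7%), beside 7.24% of all genes. Besides those 2 genes they were Mknk1, a kinase of eIF4E (337.32 and 207.47), Ppp1r15a, the stress-induced subunit GADD34 of the eIF2 phosphatase (130.19), and Paip2, a repressor of the poly(A)-binding protein (107.76). The eIF2 kinase genes Eif2ak1 and Eif2ak4 (GCN2) had CEBPG peaks of 51.19 and 45.21, and Eif2ak2 and Eif2ak3 had no peak. The Ppp1r15a peak ran from 52 bp before the start to 203 bp after it, and the neighbouring genes Plekha4 and Tulp2 shared it in their windows. The 60 bases before the Ppp1r15a start are shown because the peak covered a cAMP response element there, in capitals (RefSeq, GRCm38.p6, chr7:45526269-45526328, minus strand). The same element was in the windows of Abce1, a ribosome recycling factor with no peak in either list, and Eef2, whose CEBPG peak lay about 2 kb before the start. TGATGNAA was in the windows of Eif2s3x, which had no peak, and Eef2k, where no peak covered it.
Ppp1r15a: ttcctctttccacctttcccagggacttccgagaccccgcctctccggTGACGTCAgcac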

How the data were processed

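The authors deposited 1 BED list of peaks for each of the ATF4 and CEBPG libraries, which were sequenced single-end at 36 bp, per the labels' protocols. Named in the submitters' processing notes are MACS 1.4.2, BWA, Trimmomatic, HOMER and the mm10 build. Settings, the use of the GFP library as background and the treatment of reads from near-identical copies (such as Eif3j1 and Eif3j2) are not given in the sources used here. The deposited score is the number that closes each peak name. Its scale is not stated in the files, although it looks like that of MACS. Deposited starts were converted from 0-based to 1-based.

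Peaks were joined to RefSeq gene spans with Python 3.11.15 and pandas 2.3.3, and the counting was tested on simulated data. Overlap of lists meant at least 1 bp. Gene starts and promoters came from a RefSeq promoter table. The 38 members and all lists were chosen with earlier results of these data known. Every member was to be named. Of related genes, those with an ATF4 peak or a CEBPG score of 100 or more were to be named, and others named (Abce1, the eIF2 kinases and gamma subunits, and the elongation factors without such peaks) were chosen after their values were seen, as were the sequences of Eif4g1 and Ppp1r15a. Of the names listed, 1 (Gcn1l1) had no match because Gcn1 is the current symbol. A planned comparison of paralogous proteins was not run, since no protein sequences were used here.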

Additional observations from a re-analysis of the deposited data

How the results depend on the processing

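The alternatives changed the window, the score minimum, the overlap rule and the assignment of peaks to genes. Those using listed gene starts, length classes and peaks outside other genes' windows were chosen after seeing the data. Of 39 alternative counts, 29 stayed within 1.5 times the reported count and 10 did not. For ATF4, 2 of 38 members had a peak at scores of 50 or more (all genes 1.91%) and 0 at 100 or more (0.42%). Within 1 kb of a listed start it was 2 of 31 (0.526%), against 5 of 38 (4.94%). For CEBPG, 7 of 38 did at 100 or more (all genes 7.24%) and 5 of 31 within 1 kb of a listed start (3.98%). The main count was 19 of 38 (29.9%), so the share of all genes fell in these settings too. Overlapping peaks fell from 2 members to 0 when 50% of each peak was required to overlap, because the ATF4 peaks covered less than that of the wider CEBPG peaks. The share of all genes fell from 1.13% to 0.557%. Of the eIF2 and eIF2B genes, 1 of 8 had a CEBPG peak in the gene span alone (all genes 23.4%), 1 at scores of 50 or more (17%), 1 with peaks given to the nearest gene (27.5%) and 4 within 20 kb (43.7%), against 2 (29.9%). In these settings the group's share was below that of all genes except within 20 kb, where it was above. It was also above at scores of 100 or more (1 of 8, 12.5%, beside 7.24%). The same held within 1 kb of a listed start (2 of 7, 28.6%, beside 3.98%). Just outside the 5 kb window, the nearest ATF4 peak was 9.61 kb from Eif4e (44.96), and the nearest CEBPG peak 10.3 kb from Eif2b5 (76.26). No paired analysis was possible because there was 1 library per antibody. Depth is unknown, so a missing peak is not evidence of no binding.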

Other observations

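Elongation and termination factor genes were counted in the same way. A CEBPG peak was at 4 of 10 (40%, beside 29.9% of all genes), and one of 50 or more at 3 of 10 (30%, beside 17%). An ATF4 peak was at 0 of 10, beside 4.94% of all genes, a count too small to tell apart from that share. Eef2k, the kinase that inhibits elongation factor 2, had CEBPG peaks of 105.45, 65.85 and 41.08. Etf1, the release factor eRF1, had 3 peaks with scores of 88.09, 48.79 and 41.52, of which the weaker pair also lay in the window of Hspa9. Eef1a1 (51.44) and Eef2 (40.48), the main elongation factors, had single CEBPG peaks outside the gene, which outscored 64.4% and 5.23% of the list.

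Per length of sequence, the merged windows of the 38 initiation factor genes (1320 kb) held 16.7 CEBPG peaks per Mb, beside 10.4 per Mb in the windows of all protein-coding genes. For ATF4 the values were 3.79 and 0.964 per Mb, with 5 peaks in the members' windows. Of the members' CEBPG peaks, 31.8% scored 100 or more, beside 11.7% of the whole list, and none of the 5 ATF4 peaks did, beside 5.11%. The whole lists also include peaks outside the windows of protein-coding genes. Those windows held 12249 of 25419 CEBPG peaks and 1139 of 2642 ATF4 peaks. Among genes with a CEBPG peak, one of 100 or more was at 7 of 19 members and at 1584 of all 6541.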
